A study of Mus musculus with 6 samples.

Results

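Smooth muscle contractile genes were examined in cardiomyocytes (CMs) that overexpressed serum response factor (SRF). The 10 genes, Tagln, Cnn1, Cnn2, Cald1, Myh11, Smtn, Mylk, Lmod1, Myl9 and Synpo2, were taken by name as known targets of SRF and its partner myocardin, and all 10 were found among the 23337 genes of the count table. CMs came from wildtype mice injected at postnatal day (P) 1 with AAV9, 5e8 vg per g body weight. In the SRF-OE group the virus was AAV9-cTNT-SRF-2A-GFP, and in the GFP control group AAV9-cTNT-GFP, so both groups carry virus and GFP. The cardiac troponin T promoter limits the transgene to CMs, and the low dose was one that transduces only part of the CMs of a heart. GFP+ CMs were sorted at P14, and their RNA was reverse transcribed, amplified as cDNA and sequenced. The labels name 3 libraries in each group, with nothing on how many animals gave each, so p-values measure the spread between these libraries. The deposited table holds counts for 5 libraries, since the column under the name of SRF-OE replicate 1 lists the length of each gene, with 0 zeros. By the column names SRF-OE therefore has 2 libraries, replicates 2 and 3, and GFP has 3. The names may be displaced by 1 column, since gene symbols stand under a heading for the chromosome and lengths under a library's name. In that case the column named GFP1 would hold an SRF-OE library, SRF-OE would have 3 libraries and GFP 2, and every replicate number would shift. The files do not settle this, so groups, n and replicate numbers here are those of the column names.

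Total counts per library ran from 14137433 to 23159631. Srf itself, on chromosome 17, stood at 360 and 748 CPM (counts per 1e6, scaled for library size and composition) in SRF-OE replicates 2 and 3 and at 67.3 and 85.1 CPM in GFP replicates 2 and 3. In the library labelled GFP1 it stood at 338 CPM, near SRF-OE replicate 2. That value goes against the label and is what a displaced heading would give, but no library was moved between groups on it, and every comparison is given with the 5 libraries as labelled and without the library labelled GFP1. The sorted cells were CMs by their markers, with Myh6, the main adult myosin heavy chain of CMs, at 40537 to 68849 CPM.

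Smooth muscle contracts when calcium and calmodulin activate myosin light chain kinase, which phosphorylates the regulatory light chain of smooth muscle myosin. Calponins, caldesmon, transgelin and smoothelin bind the actin filaments on which that myosin pulls. SRF binds the CArG box, a short AT-rich element flanked by C and G pairs, and myocardin or the related factors MRTF-A and MRTF-B bind SRF there to drive most of these genes. Developing CMs express part of this set for a time, and mature CMs rely on cardiac and skeletal relatives of the same families.

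The start sites were searched for CArG boxes, because the box is where SRF would act. RefSeq windows of GRCm38.p6, from 250 bases before to 50 after a start, were matched for 8 of the 10 genes, all but Tagln and Myh11. Since the CArG pattern reads the same on both strands, each match covers both. An exact CArG box lay in the windows of 2 of the 8, Cnn2 and Myl9, against 1.81% of the 27025 genes with a window. A box with 1 mismatch lay in 3 of the 8, Cald1, Lmod1 and Myl9, against 22.5% of all genes, which makes the weaker match common. The 250 bases before the start of Cnn2 (chr10:79988350-79988599, plus strand) and of Myl9 (chr2:156775214-156775463, plus strand) are shown because they hold the exact box, with exact and 1-mismatch boxes in capitals.
Cnn2: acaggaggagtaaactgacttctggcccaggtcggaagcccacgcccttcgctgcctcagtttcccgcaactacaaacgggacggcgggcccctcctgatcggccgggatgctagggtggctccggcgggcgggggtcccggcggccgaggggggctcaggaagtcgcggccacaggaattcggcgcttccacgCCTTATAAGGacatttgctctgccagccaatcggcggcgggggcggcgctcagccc
Myl9: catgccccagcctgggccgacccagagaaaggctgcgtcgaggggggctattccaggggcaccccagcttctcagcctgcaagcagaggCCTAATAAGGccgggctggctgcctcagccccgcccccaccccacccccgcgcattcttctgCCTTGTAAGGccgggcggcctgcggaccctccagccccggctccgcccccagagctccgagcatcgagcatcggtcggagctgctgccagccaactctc
The box of Cnn2 ran from 56 to 47 bases before the start, and the exact box of Myl9 from 161 to 152. The 1-mismatch boxes of Cald1 (chr6:34598301-34598310) and Lmod1 (chr1:135324624-135324633 and chr1:135324649-135324658) are shown with their flanks for comparison, beside the farther of the 2 such boxes of Acta2, the smooth muscle actin gene (chr19:34255448-34255457, minus strand).
Cald1: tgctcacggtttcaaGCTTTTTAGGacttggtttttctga
Lmod1, farther box: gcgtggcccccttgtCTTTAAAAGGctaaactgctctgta
Lmod1, nearer box: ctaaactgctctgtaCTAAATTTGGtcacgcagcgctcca
Acta2: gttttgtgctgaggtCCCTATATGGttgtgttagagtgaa
The windows of Cnn1, Smtn, Mylk and Synpo2 and the second start of Cald1 held no such box, which says only that these letters are not in this stretch. CATTCC, the site of TEAD factors, searched on both strands, lay in 4 of the 8 (Cald1, Smtn, Mylk and Lmod1), against 16.6% of all genes, and overlapped no CArG box shown.

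The 10 genes covered a wide range of levels in sorted CMs. Per length, Myl9 was highest in GFP at a mean of 122 CPM per kb, followed by Smtn at 109, Cnn2 at 20.2, Synpo2 at 18.1, Tagln at 7.64, Cald1 at 3.78, Myh11 at 3.31, Mylk at 0.958, Cnn1 at 0.949 and Lmod1 at 0.147. In SRF-OE the mean level of Tagln was 37.7 CPM per kb, beside 129.9 for Myl9, 91.3 for Smtn and 29.2 for Cnn2. Its place above Cnn2 rested on replicate 3, since in SRF-OE replicate 2 Tagln was at 22.8 and Cnn2 at 26.4 CPM per kb. In GFP the libraries overlapped between the neighbours Myl9 and Smtn, Cnn2 and Synpo2, Tagln and Cald1, Cald1 and Myh11, and Mylk and Cnn1, and did not between Synpo2 and Tagln. As a share of the summed CPM per kb of the 10 genes, Myl9, Smtn and Synpo2 made up 92.0% and 89.1% in GFP replicates 2 and 3, 78.3% in the library labelled GFP1, and 80.1% and 64.6% in SRF-OE replicates 2 and 3. The share of Tagln was 1.32% and 1.94% in GFP replicates 2 and 3, 5.31% in the library labelled GFP1, and 6.76% and 17.5% in SRF-OE replicates 2 and 3.

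**Figure D1:**
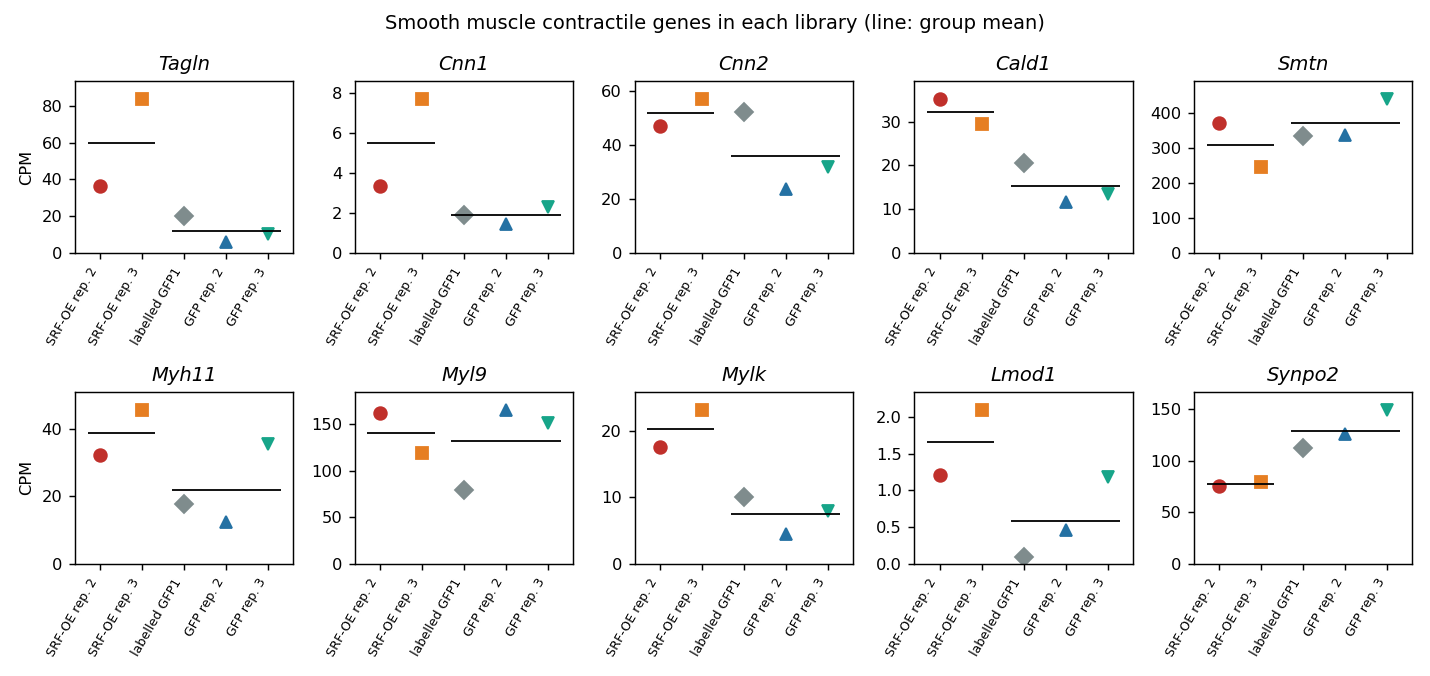
Levels of the 10 smooth muscle contractile genes in each of the 5 libraries, 1 panel a gene, with CPM on a linear axis from 0 and a line at the group mean (the library labelled GFP1 is counted in GFP). Both SRF-OE libraries lie above all 3 GFP libraries for Tagln, Cnn1, Cald1, Mylk and Lmod1 and below them for Synpo2.

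The set did not move as 1 block. Both SRF-OE libraries were above all GFP libraries for Tagln, Cnn1, Cald1, Mylk and Lmod1 and below them for Synpo2, and the groups overlapped for Cnn2, Myh11, Smtn and Myl9. In edgeR's quasi-likelihood test with the 5 libraries as labelled, all 10 genes passed the filter on low counts, and 0 of the 10 had an adjusted p under 0.05 in either direction, as did 0 of the 13754 genes tested. DESeq2 with the same libraries also called 0 of the 10, but its independent filtering gave an adjusted p to 1 of them. It called 1.02% of the genes it adjusted higher and 19.7% lower. At an unadjusted p under 0.05 from edgeR, 4 of the 10 were higher, against 6.35% of all genes tested, and 1 was lower, against 7.59%. DESeq2 gave 5 higher and 1 lower at that limit. The libraries of SRF-OE lay above all GFP libraries for 5 of the 10 genes, against 16.1% of all genes, and below all of them for 1, against 17.3%. The median log2 fold change of the 10 was 0.96, beside 0.03 over all genes tested. It was 0.82 for the fibroblast, 0.49 for the leukocyte, 0.42 for the endothelial and 0.29 for the mural markers described below.

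Without the library labelled GFP1, Tagln and Cald1 rose and Synpo2 fell with SRF-OE, each with an edgeR adjusted p under 0.05. These are 2 of 10 called higher, against 1.98% of the 13397 genes tested, and 1 of 10 called lower, against 0.97%. Mylk and Cnn2 stood just over the limit, with edgeR adjusted p of 0.052 and 0.059. The groups did not overlap for 6 genes higher and 1 lower, against 30.8% and 30.2% of all genes in a comparison of 2 libraries with 2. The median log2 fold change of the 10 was 1.00, beside 0.04 over all genes. In this fit the markers of other cells described below had similar medians. These were 1.06 for fibroblast, 1.08 for leukocyte, 0.81 for endothelial and 0.81 for mural markers. DESeq2 on these 4 libraries called 5 of the 10 higher, with Cnn1, Cnn2 and Mylk added, and 1 lower, against 6.31% and 6.16% of the genes it adjusted. In edgeR with the size factors of DESeq2, 3 were higher and 1 lower (background 2.46% and 1.54%), and with no filter on low counts 6 and 1 (background 7.75% and 6.09%). With upper quartile scaling, or with at least 10 counts required in every library, edgeR called Cald1 alone, against 0.657% and 0.453% of all genes called higher and 0.0672% and 0.0741% called lower, and the edgeR adjusted p of Tagln and Synpo2 were 0.052 with the first and 0.056 and 0.057 with the second. A block on the replicate number, which takes the library labelled GFP1 out of the contrast as the only one with its number, gave 4 of the 10 as called higher and 1 as lower, against 4.23% and 3.14% of all genes, or 4.08% and 2.93% with that library left out of the fit.

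**Figure D2:**
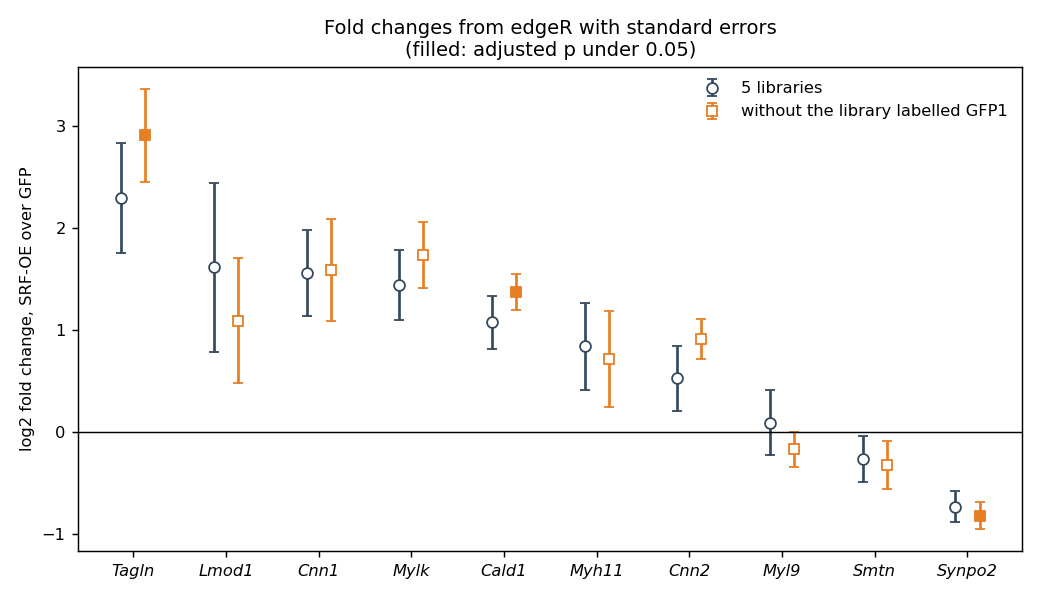
Log2 fold change of each gene between SRF-OE and GFP with its standard error from edgeR, with the 5 libraries (circles) and without the library labelled GFP1 (squares), filled where the adjusted p was under 0.05. The filled squares are Tagln, Cald1 and Synpo2, and the values run from 2.92 for Tagln to -0.82 for Synpo2 without that library.

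Among the actin-binding proteins, Tagln had the largest difference of the 10. Tagln encodes transgelin (SM22), an actin cross-linker and a standard marker of smooth muscle, and lies on chromosome 9 (chr9:45929619-45936058, minus strand). Its level was 36.2 and 83.5 CPM in SRF-OE replicates 2 and 3, 6.15 and 10.0 CPM in GFP replicates 2 and 3, and 20.2 CPM in the library labelled GFP1. Both SRF-OE libraries were above every GFP library, and the library labelled GFP1 lay between the groups. The SRF-OE mean was 59.8 ± 33.4 CPM (SD, n = 2), and the GFP mean 12.1 ± 7.26 CPM (SD, n = 3). The log2 fold change was 2.30 ± 0.54 (SE; edgeR adjusted p = 0.35), and 2.92 ± 0.46 (SE; edgeR adjusted p = 0.047), or 7.54-fold, without the library labelled GFP1. Leaving out SRF-OE replicate 3 gave the lowest value, 1.56. An annotated antisense gene, Gm48529, shares 62.4% of the exon bases of Tagln, and Pcsk7 on the same opposite strand shares 108 bases. The strand setting of the counting was not stated, so reads of these genes and of Tagln cannot be told apart.

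The calponins bind actin and restrain the myosin motor. Cnn1, the calponin typical of differentiated smooth muscle (chr9:22099216-22109630, plus strand), was scarce, with 58 and 176 counts in SRF-OE replicates 2 and 3 and 40, 32 and 29 counts in the libraries labelled GFP1, GFP2 and GFP3. Both SRF-OE libraries were higher, at 3.35 and 7.69 CPM against 1.47 to 2.29 CPM in GFP. Its log2 fold change was 1.56 ± 0.42 (SE) with 5 libraries and 1.59 ± 0.50 (SE; edgeR adjusted p = 0.11) without the library labelled GFP1, and it ranged from 0.83 without SRF-OE replicate 3 to 2.04 without SRF-OE replicate 2. Cnn2 (chr10:79988584-79996062, plus strand), a calponin found in many non-muscle cells as well, was at 47.1 and 56.9 CPM in SRF-OE replicates 2 and 3, 23.8 and 31.9 CPM in GFP replicates 2 and 3, and 52.4 CPM in the library labelled GFP1. The last value fell between the SRF-OE libraries, so the groups as labelled overlap. Its log2 fold change was 0.53 ± 0.32 (SE) with 5 libraries and 0.91 ± 0.19 (SE) without that library.

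Cald1 encodes caldesmon, which blocks myosin on actin until calcium rises (chr6:34598500-34775473, plus strand). It was at 35.1 and 29.4 CPM in SRF-OE replicates 2 and 3, 11.6 and 13.4 CPM in GFP replicates 2 and 3, and 20.7 CPM in the library labelled GFP1. The SRF-OE libraries were close to each other and above all GFP libraries, with the library labelled GFP1 again between. Its log2 fold change was 1.08 ± 0.26 (SE; edgeR adjusted p = 0.35) with 5 libraries and 1.37 ± 0.17 (SE; edgeR adjusted p = 0.044), or 2.59-fold, without that library. The adjusted p of Cald1 was under 0.05 in all 6 alternatives run on the 4 libraries, from 1.2e-08 to 0.049. Smtn, which encodes the actin-binding protein smoothelin of contractile smooth muscle (chr11:3517523-3540612, minus strand), was at 372 and 247 CPM in SRF-OE replicates 2 and 3, 338 and 439 CPM in GFP replicates 2 and 3, and 335 CPM in the library labelled GFP1. The groups overlapped, with a log2 fold change of -0.26 ± 0.22 (SE), and the annotated Gm11946 on the other strand shares 16.3% of its exon bases.

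The myosin heavy chain, light chain and light chain kinase genes of the set differed from one another. Myh11, the smooth muscle myosin heavy chain (chr16:14194535-14291372, minus strand), was at 32.4 and 45.7 CPM in SRF-OE replicates 2 and 3, 12.5 and 35.6 CPM in GFP replicates 2 and 3, and 17.7 CPM in the library labelled GFP1. GFP replicate 3 reached the range of SRF-OE, and the log2 fold change of 0.84 ± 0.42 (SE) ranged from 0.56 without GFP replicate 2 to 1.37 without GFP replicate 3. Myl9, a regulatory light chain of smooth muscle and non-muscle myosin (chr2:156775420-156781658, plus strand), was at 162 and 119 CPM in SRF-OE replicates 2 and 3, 165 and 151 CPM in GFP replicates 2 and 3, and 79.3 CPM in the library labelled GFP1. The groups overlapped, and its sign turned with the libraries used, 0.09 ± 0.32 (SE) with 5 and -0.16 ± 0.17 (SE) without the library labelled GFP1. Myl9 and its relatives Myl12a and Myl12b encode nearly identical proteins, and whether reads were shared among them was not examined. The annotated intervals of Myl12a (chr17:70993656-71002878) and Myl12b (chr17:70974119-71002208) overlap on the minus strand. Mylk, the smooth muscle myosin light chain kinase (chr16:34745210-35002420, plus strand), was at 17.6 and 23.2 CPM in SRF-OE replicates 2 and 3, 4.45 and 7.97 CPM in GFP replicates 2 and 3, and 10.0 CPM in the library labelled GFP1. Both SRF-OE libraries were above every GFP library, and the antisense gene E130310I04Rik shares 4.87% of the exon bases of Mylk. Its log2 fold change was 1.45 ± 0.34 (SE) with 5 libraries and 1.74 ± 0.32 (SE) without the library labelled GFP1. The kinase that acts on the light chain thus stood higher in SRF-OE while the light chain Myl9, with an exact CArG box, overlapped between groups.

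The remaining genes organize actin filaments. Lmod1, a leiomodin that nucleates actin in smooth muscle (chr1:135324807-135368065, plus strand), was the scarcest, with 21 and 48 counts in SRF-OE replicates 2 and 3, 10 and 15 in GFP replicates 2 and 3, and 2 in the library labelled GFP1. This depth left a log2 fold change of 1.62 with a standard error of 0.83, and of 1.10 ± 0.61 (SE) without the library labelled GFP1. Synpo2 encodes myopodin, a partner of actin, filamin and alpha-actinin that striated muscle also holds at the Z-disc (chr3:123076519-123236149, minus strand). Its level was 75.7 and 79.6 CPM in SRF-OE replicates 2 and 3, 126 and 149 CPM in GFP replicates 2 and 3, and 112 CPM in the library labelled GFP1. Both SRF-OE libraries were below every GFP library, the reverse of Tagln. The SRF-OE mean was 77.7 ± 2.74 CPM (SD, n = 2), and the GFP mean 129 ± 18.7 CPM (SD, n = 3), for a log2 fold change of -0.73 ± 0.15 (SE; edgeR adjusted p = 0.35), and of -0.82 ± 0.13 (SE; edgeR adjusted p = 0.048) without the library labelled GFP1. Leaving out any 1 of the 5 libraries kept its value between -0.82 and -0.61.

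The 2 SRF-OE libraries differed in Srf by 2.08-fold, and 7 of the 10 genes were higher in SRF-OE replicate 3, the library with more Srf. The ratio of replicate 3 to replicate 2 was 2.31 for Tagln, 2.29 for Cnn1, 1.73 for Lmod1, 1.41 for Myh11, 1.32 for Mylk, 1.21 for Cnn2 and 1.05 for Synpo2. It was 0.837 for Cald1, 0.734 for Myl9 and 0.663 for Smtn. With 1 library at each Srf level these ratios have no test, and the share of all genes higher in replicate 3 was not counted. The 2 libraries also differed in markers of other cells. The median endothelial marker, against the mean of GFP replicates 2 and 3, was at 2.54 in SRF-OE replicate 2 and 0.972 in replicate 3. The library labelled GFP1, at 4.43 times the mean Srf of GFP replicates 2 and 3, was above both of them for 4 of the 10 genes, below both for 4 and between them for 2. Its ratio to their mean was 2.498 for Tagln, 1.88 for Cnn2, 1.65 for Cald1 and 1.61 for Mylk, but 1.01 for Cnn1, 0.816 for Synpo2, 0.501 for Myl9 and 0.116 for Lmod1.

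Relatives of these genes that striated muscle or all cells use were compared from a list of 16, of which 14 passed the filter. None was called in edgeR with 5 libraries, where 1 was higher and 3 lower at an unadjusted p under 0.05, against 6.35% and 7.59% of all genes. Nor was any called without the library labelled GFP1, where 5 were higher and 3 lower at that limit, against 14.4% and 14.0%. In that fit Mylk3, Mylk4, Lmod2, Lmod3 and Smtnl2 had negative log2 fold changes, and the other 9 tested had positive ones. Mylk3, the cardiac light chain kinase, was at 627 and 561 CPM in SRF-OE replicates 2 and 3, 938 and 973 CPM in GFP replicates 2 and 3, and 619 CPM in the library labelled GFP1, with a log2 fold change of -0.68 (edgeR adjusted p = 0.059) without that library. Lmod2, the cardiac leiomodin, and Lmod3, its skeletal relative, had log2 fold changes of -0.41 and -0.85 in that fit. Per length, Mylk3 exceeded Mylk by 536 and 310 times in GFP replicates 2 and 3, by 157 times in the library labelled GFP1, and by 90.7 and 61.6 times in SRF-OE replicates 2 and 3. The sorted cells of both groups thus held far more of the cardiac kinase RNA, and the gap was narrower in SRF-OE. Mylk was higher and Mylk3 lower in SRF-OE than in GFP replicates 2 and 3. Which cells held the Mylk RNA was not tested. The broadly expressed relatives Tagln2, Cnn3, Myh9, Myh10, Myl12a and Myl12b had log2 fold changes of 0.31 to 0.55 with 5 libraries. Without the library labelled GFP1 these were 0.42 to 1.06. Synpo2l, a muscle relative of Synpo2, was at 0.10 and 0.13 in the same order. Tagln exceeded Tagln2 per length only in SRF-OE replicate 3, by 2.32 times, while the ratio of Tagln to Tagln2 was 0.511 in SRF-OE replicate 2 and 0.229 to 0.360 in the GFP libraries.

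**Figure D3:**
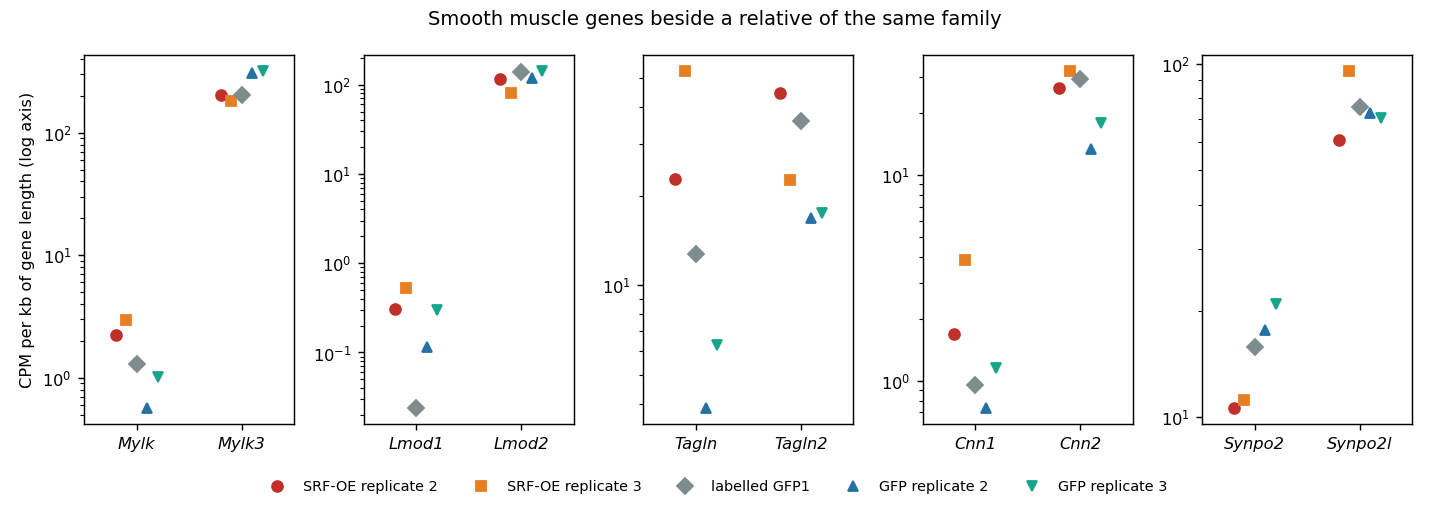
Levels per length (CPM per kb, log axis, each panel with its own range) of 5 smooth muscle genes and a relative of each, 1 point a library. Mylk and Lmod1 lie far below the cardiac genes Mylk3 and Lmod2 in all 5 libraries, and Tagln passes Tagln2 in SRF-OE replicate 3, at a ratio of 2.32.

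Other genes listed for smooth muscle also went both ways, but the list does not separate smooth muscle from CM genes. Tpm1 and Fhl2, picked out after their values were seen, were at 8535 to 16548 and 1212 to 3511 CPM. Both were lower in SRF-OE than in every GFP library. Of the 22 cytoskeletal and adhesion genes listed, 0 were called in edgeR with 5 libraries. There 6 were higher and 2 lower at an unadjusted p under 0.05, against 6.35% and 7.59% of all genes. Without the library labelled GFP1, Csrp1 and Pdlim7 rose and Acta2 and Itga7 fell, against 1.98% and 0.97% of all genes called. Csrp1, a LIM protein of smooth muscle, was at 119 and 255 CPM in SRF-OE replicates 2 and 3, 25.7 and 24.9 CPM in GFP replicates 2 and 3, and 103 CPM in the library labelled GFP1. Its log2 fold change was 1.86 with 5 libraries and 2.89 without that library, the latter close to that of Tagln. Pdlim7, which ties kinases to actin, had log2 fold changes of 1.65 and 2.55 in the same order. Acta2, the smooth muscle actin that immature CMs also express, was at 530 and 372 CPM in SRF-OE replicates 2 and 3, 1018 and 1464 CPM in GFP replicates 2 and 3, and 463 CPM in the library labelled GFP1, with a log2 fold change of -1.45 (edgeR adjusted p = 0.0499) without that library. The ratio of Tagln to Acta2 per length was 0.0766 and 0.252 in SRF-OE replicates 2 and 3, 0.00678 and 0.00769 in GFP replicates 2 and 3, and 0.0490 in the library labelled GFP1. These classical markers of smooth muscle thus went opposite ways without that library, while with 5 libraries the groups overlapped for Acta2. Itga7, an integrin of muscle, had log2 fold changes of -0.85 with 5 libraries and -1.01 without that library.

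Among SRF and 11 cofactors or regulators of the smooth muscle programme, Srf, Fhl1 and Klf4 rose without the library labelled GFP1, against 1.98% of all genes. Srf was delivered by the virus, and that library was singled out for its Srf level. The rise of Srf is therefore not a result about this list. With 5 libraries 0 were called in edgeR. There 4 were higher at an unadjusted p under 0.05, Srf itself with Myocd, Tead1 and Klf4, against 6.35% of all genes. Fhl1 was at 703 and 2871 CPM in SRF-OE replicates 2 and 3, and 120 and 138 CPM in GFP replicates 2 and 3. In the library labelled GFP1 it was at 1731 CPM, between the SRF-OE libraries, so the groups as labelled overlap. Counts of Srf were not split between the transgene and the gene of the animal. Myocd, the gene of myocardin, was already at 205 and 236 CPM in GFP replicates 2 and 3 and 215 CPM in the library labelled GFP1, and at 275 and 419 CPM in SRF-OE replicates 2 and 3. Its log2 fold change was 0.66 in both fits (edgeR adjusted p = 0.12 without the library labelled GFP1). Mkl1 and Mkl2, the genes of MRTF-A and MRTF-B, had log2 fold changes of 0.04 and -0.19 without that library. Klf4, a factor that opposes myocardin in smooth muscle, was at 14.9 and 15.4 CPM in SRF-OE and 5.50 to 10.6 CPM in GFP. Its log2 fold change was 0.98 with 5 libraries and 1.298 when the library labelled GFP1 was left out.

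Markers of other cells were read beside these genes, since a sort of CMs can carry vascular cells, and in bulk RNA fewer cells of a type and less RNA per cell cannot be told apart. None of the 16 markers of pericytes and vascular smooth muscle (mural cells) was at 0 in any library, and their summed level was 812 and 702 CPM in SRF-OE and 592 to 848 CPM in GFP. Abcc9, picked out after the values were seen, made up 323 and 260 CPM of that sum in SRF-OE and 357 to 393 CPM in GFP. Its log2 fold change was -0.37 with 5 libraries, so the sum does not follow most of the list. Of the 16, 14 had a positive log2 fold change with 5 libraries, with 0 called in edgeR, and Mcam alone was called higher without the library labelled GFP1. Against the mean of GFP replicates 2 and 3, the median mural marker was at a ratio of 2.26 in SRF-OE replicate 2, 2.29 in the library labelled GFP1 and 1.19 in SRF-OE replicate 3. The summed level of the 12 endothelial markers was 1039 and 412 CPM in SRF-OE replicates 2 and 3, 802 CPM in the library labelled GFP1, and 438 and 425 CPM in GFP replicates 2 and 3. The median of these 12 was at a ratio of 2.54 in SRF-OE replicate 2, 1.87 in the library labelled GFP1 and 0.972 in SRF-OE replicate 3, and that of the 10 fibroblast markers with at least 1 CPM was at 2.62, 1.71 and 1.45 in the same order. SRF-OE replicate 2 and the library labelled GFP1 thus held more RNA of vascular cells than the other libraries, and SRF-OE replicate 3 held endothelial markers at the level of GFP replicates 2 and 3.

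Against the mean of GFP replicates 2 and 3, Tagln was at a ratio of 10.3 in SRF-OE replicate 3 and at 4.48 in SRF-OE replicate 2. The median of the 9 contractile genes with at least 1 CPM was at 2.05 in SRF-OE replicate 3, 1.69 in SRF-OE replicate 2 and 1.01 in the library labelled GFP1. In SRF-OE replicate 2 the ratio was over 2 for 3 of the 9 genes. There it was over 2 for 11 of the 12 endothelial, 9 of the 10 fibroblast and 11 of the 16 mural markers. The share of all genes with a ratio over 2 was not counted. In SRF-OE replicate 3 the ratio was over 2 for 5 of the 9 genes. It was over 2 for 0 of the 12 endothelial, 1 of the 10 fibroblast and 3 of the 16 mural markers. Those 3, of which Cspg4 and Gucy1b3 were picked out after their values were seen, include Mcam at 4.41, so mural markers were not uniformly at the GFP level in that library. Cald1, which was higher in SRF-OE replicate 2 than in replicate 3, had ratios of 2.80 and 2.35. Fibroblast markers were higher in SRF-OE for 12 of 12 genes in sign, with 0 called by edgeR with 5 libraries and Ddr2 alone without the library labelled GFP1. The 9 leukocyte markers in the table summed to 46.0 and 16.4 CPM in SRF-OE and 13.3 to 36.1 CPM in GFP. Of 12 CM markers, 11 had a negative log2 fold change with 5 libraries, with 0 called. Their median was -0.47, and 7 of the 12 were below all GFP libraries, against 17.3% of all genes. Without the library labelled GFP1 the median was -0.60, with values down to -1.07. In that fit 10 of the 12 were below both GFP libraries, against 30.2% of all genes, with 0 called. The part of other cells in the values of the contractile genes was not tested.

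**Figure D4:**
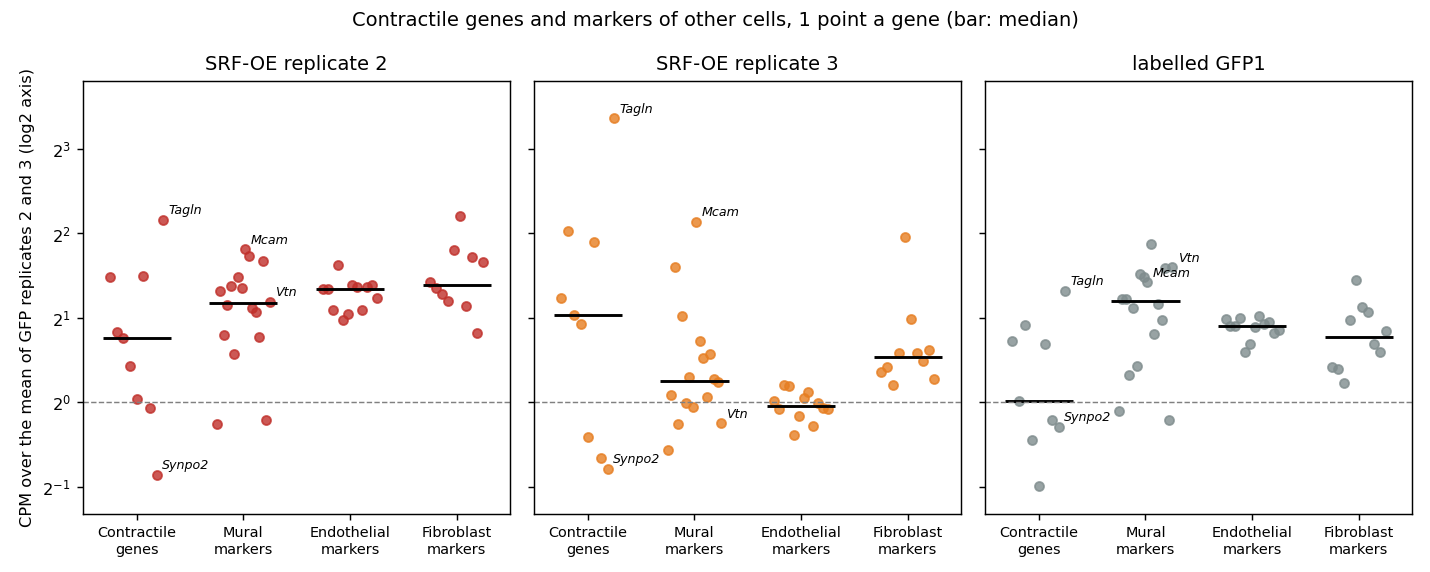
Ratio of each gene's CPM to its mean in GFP replicates 2 and 3 (log2 axis, dashed line at 1) in the other 3 libraries, for the contractile genes and for markers of mural, endothelial and fibroblast cells with at least 1 CPM, with a bar at each median. In SRF-OE replicate 2 the medians are 1.69 for the contractile genes, 2.26 for mural, 2.54 for endothelial and 2.62 for fibroblast markers. In SRF-OE replicate 3 the medians are 2.05, 1.19, 0.972 and 1.45 in the same order. Tagln lies at 10.3 and Mcam, a mural marker, at 4.41 in that library.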

How the data were processed

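RNA-seq counts of sorted CMs were analysed. The authors deposited raw counts per gene, without normalization. The submitters' processing notes name STAR 2.5.3a, featureCounts of Subread 1.5.2 and the mm10 genome. Strand and multi-mapping settings were not given in the sources used here. The deposited column headed as SRF-OE replicate 1, of another kind than counts, holds gene lengths in bp and served only as such. The 5 other columns were assigned by name, and 0 columns were left unused. Counts were tested in edgeR 4.0.16 (R 4.3.3) with filterByExpr, TMM factors, glmQLFit, glmQLFTest and Benjamini-Hochberg adjustment over all genes, with a cutoff of 0.05. DESeq2 1.42.0 was an alternative, as were other scalings, filters, the replicate number as a block and leaving out each library. The standard error is the log2 fold change divided by the square root of the F statistic. Fits were tested on simulated counts. The 10 genes, the lists and the alternatives were chosen with earlier results of these data known, and 2 alternatives on the 4 libraries and the calls with 1 SRF-OE library were added after the counts were seen. All genes of the lists of relatives and of SRF cofactors could be named, and of other lists those called, up to 6, or else those with the highest level and the highest and lowest fold change. Gene positions are from GENCODE M21 (GRCm38) and start windows from RefSeq GRCm38.p6. An exact permutation test of 2 libraries against 3 has 0.1 as its smallest p. With 2 libraries against 2, as in the fits without the library labelled GFP1, its smallest p is 0.33. The counts over a further list of genes that control contraction are not reported here.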

Additional observations from a re-analysis of the deposited data

How the results depend on the processing

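Of the 10 smooth muscle contractile genes, edgeR called 0 higher and 0 lower with 5 libraries, and the same counts came from scaling by the size factors of DESeq2 or by upper quartile, and from dropping the filter or asking for 10 or more counts throughout. With 1 library left out the counts ranged from 0 to 2 higher and 0 to 1 lower, and any call needed the library labelled GFP1 to be the one left out. Fits that left 1 SRF-OE library assume that it varies like GFP, and called 0 genes. Without the library labelled GFP1, DESeq2 called 5 higher and 1 lower, edgeR with the size factors of DESeq2 3 and 1, by upper quartile 1 and 0, unfiltered 6 and 1, and with 10 or more counts 1 and 0, the last pair of fits chosen after seeing the data. The cause was not tested.

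The replicate block, with the number from the titles as a term, called 4 higher (Tagln, Cnn2, Cald1, Mylk) and 1 lower (Synpo2) with 5 libraries. No other library shares the number of the one labelled GFP1, so the block takes it out of the contrast, and the fit without it, with 4 and 1, is nearly the same fit. Across genes, the deviations from the group mean of libraries with the same number had a correlation of 0.41 for number 2 and -0.086 for number 3 with 5 libraries, and of 0.227 for both with 4, where 2 libraries a group give both pairs the same value. With 2 shared numbers and no label that ties them, the libraries were taken to share only a number.

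Over all genes, edgeR called 0 higher and 0 lower with 5 libraries, DESeq2 11 and 213, and the block 582 and 432. Without the library labelled GFP1, edgeR called 265 and 130, DESeq2 853 and 833, its size factors in edgeR 330 and 206, the upper quartile 88 and 9, unfiltered counts 1660 and 1303, 10 or more counts 55 and 9, and the block 547 and 392.

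The median log2 fold change of the 10 genes stayed between 0.70 and 1.18 in all fits run. Of the 10 genes, Myl9 alone turned its sign. Leaving out 1 library moved it between -0.16 and 0.29. It went from 0.09 to -0.19 with the block, -0.15 without SRF-OE replicate 2 and -0.16 without the library labelled GFP1, where it was -0.18 with DESeq2, -0.17 with its size factors, -0.10 by upper quartile, -0.18 with the block, -0.18 unfiltered and -0.14 with 10 or more counts. Lmod1, with 2 counts in the library labelled GFP1, was limited by depth and left out of the fit of 5 libraries that required 10 counts.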
